A study of Huso dauricus x Acipenser schrenckii with 16 samples.

Results

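The genes of fatty acid synthesis, desaturation, elongation, activation and oxidation were followed in the ovary of a farmed hybrid sturgeon. They were taken from the gene table as every row whose first protein description carries a fatty acid synthase, acetyl-CoA carboxylase, ATP-citrate synthase, desaturase, elongase, long-chain fatty acid ligase, carnitine acyltransferase, acyl-CoA dehydrogenase, trifunctional enzyme or peroxisomal acyl-CoA oxidase name. This gave 89 of the 41685 rows, of which 11 belonged to synthesis, 6 to desaturation, 15 to elongation, 21 to activation, 10 to the carnitine shuttle, 24 to mitochondrial oxidation and 2 to peroxisomal oxidation. A gene symbol was given for 17 of these rows and only a locus number for 72. The rule drew in 5 rows whose symbol or name points elsewhere. The symbols dus1l and ccdc57 carry the description of fatty acid synthase and lie 1530 and 3431 bp from the fatty acid synthase row LOC117423032 on the same strand, lhx8a carries that of a medium-chain acyl-CoA dehydrogenase and lies 80942 bp from the row LOC117416830, hsd17b10 is a 3-hydroxyacyl-CoA dehydrogenase caught by part of its name, and olah is the thioesterase that acts on fatty acid synthase.

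All fish were adult females of the cross with Huso dauricus as dam and Acipenser schrenckii as sire, kept under normal breeding conditions, with no age, drug or genetic change given in the labels. The high-yield group (8 libraries) came from one farmed population ranked as giving much caviar, and the low-yield group (8 libraries) from another ranked as giving little. Yield and population therefore cannot be told apart. Poly(A) RNA of whole ovary was sequenced, with 37362125 to 60873931 counts per library.

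Fatty acids are built in the cytosol from citrate, which ATP-citrate synthase splits into acetyl-CoA, acetyl-CoA carboxylase turns into malonyl-CoA, and fatty acid synthase joins into saturated chains. Desaturases add double bonds, and elongases lengthen the chains. Ligases couple free fatty acids to coenzyme A, after which the carnitine shuttle carries them into mitochondria for beta-oxidation, while peroxisomes begin the oxidation of very long chains. A fish oocyte fills with lipid and yolk as it grows, much of it delivered by the blood from the liver, and the stored fatty acids later serve the embryo as fuel and as membrane. Sturgeons have polyploid ancestors, and many of these enzymes stood in the table as more than 1 row.

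Libraries 1 and 5, 2 and 6, 3 and 7, and 4 and 8 of high yield were near copies of each other. Across genes, the rank correlation of log2 CPM (counts scaled to library size) was 0.973 to 0.981 within these pairs and at most 0.960 between any other libraries, and counts within a pair varied by 4.16 to 5.45 times Poisson sampling, against 21.6 or more elsewhere. Each pair was counted as 1 sample, so values are for 4 high-yield pair means (n = 4) and 8 low-yield libraries (n = 8). In the rest of the Results, CPM are also TMM-scaled, an adjustment for library composition that lowered values of low-yield 2 and raised those of low-yield 5. The first principal component, 37.3% of the variance, placed high-yield pairs 1-5 and 2-6 and low-yield 2 and 5 at 58.07 to 138 and the other 8 samples at -51.15 to -31.95. Fibroblast and matrix markers summed to 65.0 to 154 CPM in the high-yield pairs, and to 750 CPM in low-yield 2 and 1374 CPM in low-yield 5, with the remaining low-yield libraries at 91.4 to 180 CPM. Oocyte markers were present throughout. A bone morphogenetic protein 15 row, LOC117430234, had 125 to 204.5 CPM in the high-yield pairs, against 62.1 to 167 CPM in low yield. Of 156 tested oocyte rows, 50 had a positive log2 fold change, high yield over low yield (median -0.35), against 48.6% of all tested genes. The follicle-stimulating hormone receptor rows of granulosa cells stayed at or under 2.28 CPM in every sample. The granulosa and theca list summed to 13.8 to 20.02 CPM in high yield, against 19.3 to 79.3 CPM in low yield. Of its 14 tested rows, 2 had a positive sign (median -1.17).

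Rows of mitochondrial oxidation, and by their median those of activation, stood at higher levels than most rows of synthesis and desaturation. Between genes, levels are given as FPKM (counts scaled to library size and gene length), as mean over 16 libraries. Of the 24 mitochondrial oxidation rows 12 reached 10 FPKM, against 3 of 11 synthesis rows and 2 of 6 desaturation rows. Activation lay between, with 8 of its 21 rows at 10 FPKM or more and 5 under 1 FPKM. These counts include lhx8a at 17.8 FPKM in oxidation and dus1l at 15.6 FPKM in synthesis, whose symbols point elsewhere. Median levels were 10.4 FPKM for mitochondrial oxidation, 5.58 for activation and 4.92 for the carnitine shuttle, against 1.81 for elongation, 0.700 for synthesis and 0.322 for desaturation. Among rows with an ordinary length, the highest were an ACSBG2-like ligase, LOC117963608, at 123 FPKM, the medium-chain acyl-CoA dehydrogenase LOC117416830 at 100.3 FPKM and the trifunctional enzyme beta subunit LOC117402250 at 77.2 FPKM. At the other end, the rows of fatty acid synthase, acetyl-CoA carboxylase 1, fatty acid desaturases 1, 2 and 6 and elongase 2 stood under 1 FPKM, dus1l aside. The 5 rows LOC131706854, LOC131721202, LOC131710627, crot and LOC131709067 had 93.8 to 294 FPKM on no more than 61.7 CPM in any sample. The ratio of their counts to their FPKM implies lengths of 0.0698 to 0.135 kb, under the 0.2 kb that 9.08% of all tested rows also fell below, so their rank by FPKM is uncertain.

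**Figure D1:**
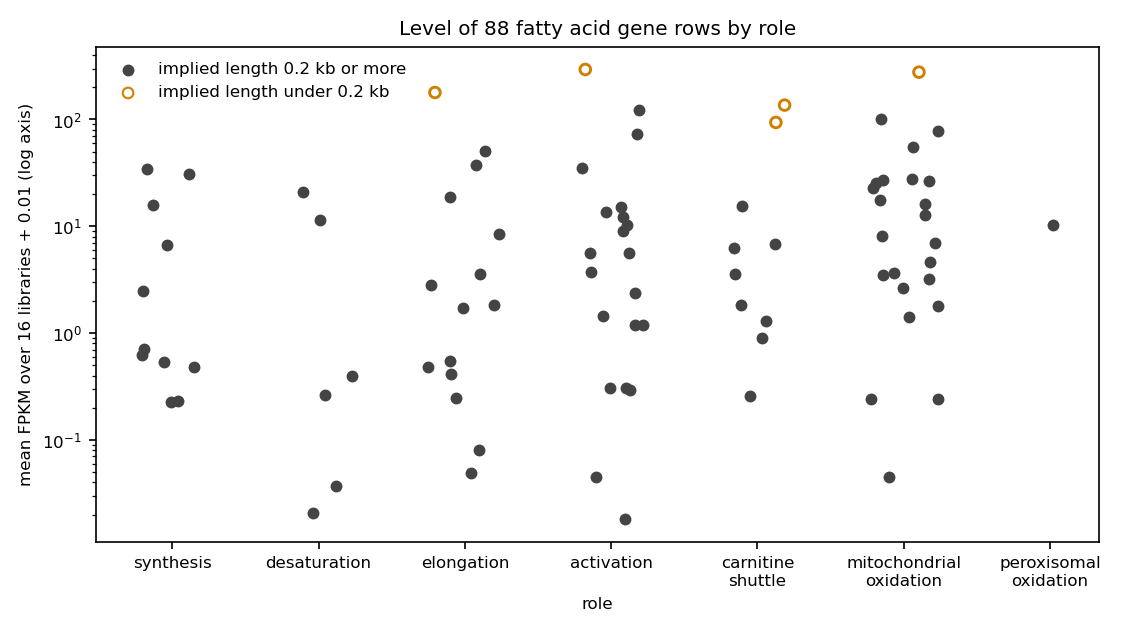
Mean FPKM over 16 libraries (log axis, 0.01 added) of 88 of the rows, by role, with open orange circles for the 5 rows whose implied length is under 0.2 kb. Mitochondrial oxidation has the most rows at or above 10 FPKM (12 of 24, lhx8a among them), and the highest points of activation, elongation, the carnitine shuttle and mitochondrial oxidation are short rows.

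No member differed between the yield groups after correction. A count filter left 84 members, and edgeR's quasi-likelihood test with Benjamini-Hochberg adjustment over 30009 genes called 0 of them (smallest adjusted p = 0.574), where it also called 0% of all genes. At an unadjusted p under 0.05, 3 members (3.57%) passed, 2 higher and 1 lower in high yield, against 8.52% of all tested genes (5.18% higher and 3.35% lower). The lower one, LOC117434917, passed the count filter only through its low-yield counts. The median log2 fold change, high yield over low yield, was -0.10 over members and -0.02 over all tested genes, and 37 of 84 members (44.0%) had a positive sign, against 48.6% of all genes. For no member did all 4 high-yield pairs lie above, or all lie below, every low-yield library, as happened for 0.34% and 0.293% of all genes. DESeq2 called 0 members and 0.283% of all genes. It found 6 members (7.14%) at an unadjusted p under 0.05, 2 higher (2.38%) and 4 lower (4.76%), against 10.9% of all genes (5.37% higher and 5.56% lower), with a positive sign in 42.9% of members and 48.4% of all genes. With all 16 libraries taken as separate samples, edgeR called 0 of 80 members and 0.0579% of all genes, and 14 members (17.5%) had an unadjusted p under 0.05, 3 higher (3.75%) and 11 lower (13.8%), against 19.8% of all genes (9.15% higher and 10.7% lower). In that comparison 43.8% of members and 47.3% of all genes had a positive sign. The count of 3 was 1 without high-yield pair 1-5, 1 without pair 2-6, 9 without pair 3-7, 5 without pair 4-8 and 6 without low-yield 1, beside 4.24%, 4.48%, 9.76%, 10.6% and 7.71% of all genes.

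**Figure D2:**
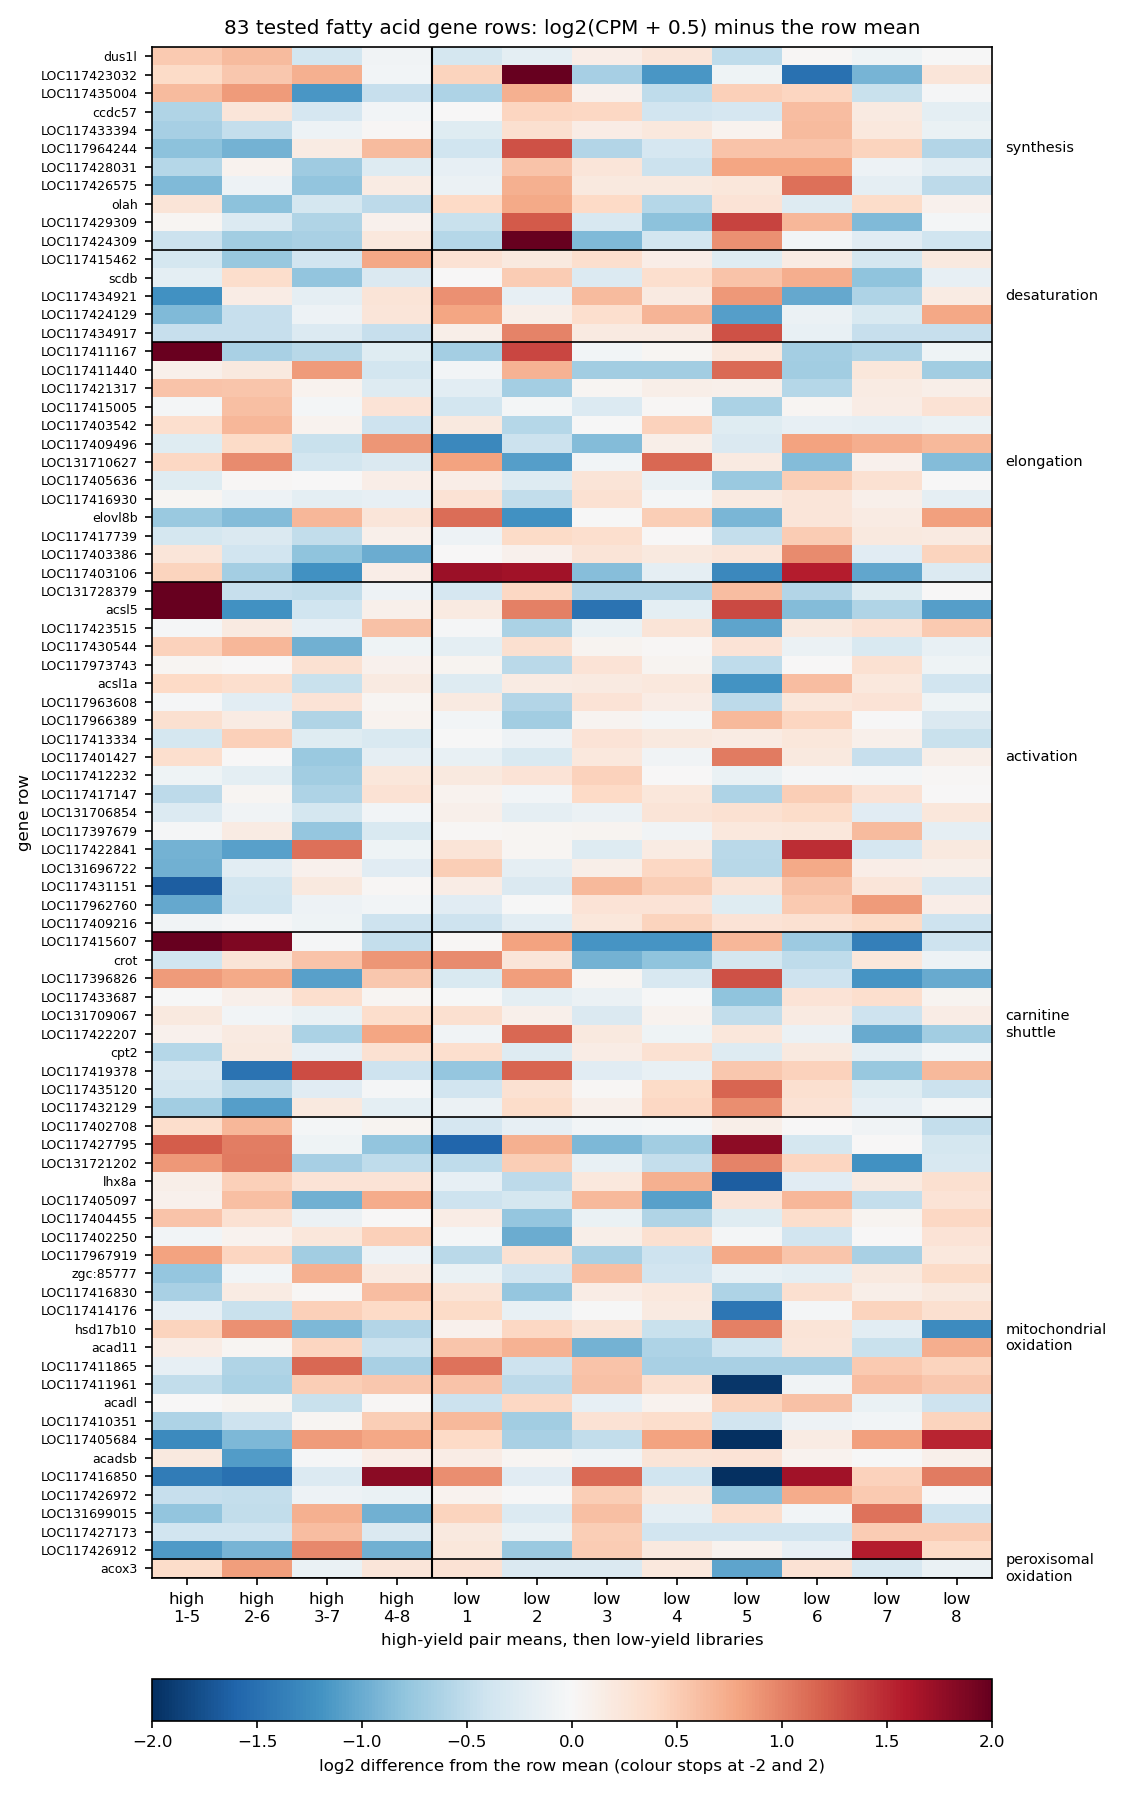
Log2(CPM + 0.5) of 83 tested rows in each sample (columns, high-yield pair means then low-yield libraries) minus the row's mean over the 12 samples, ordered by role and by fold change. No block of colour separates the 4 high-yield columns from the 8 low-yield columns, while single samples such as high-yield 1-5 and low-yield 2 and 5 stand out in single rows.

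In synthesis, ATP-citrate synthase was the most abundant enzyme and its 2 rows behaved differently. The row LOC117433394 had 46.2, 52.5, 68.3 and 74.4 CPM in the high-yield pairs 1-5, 2-6, 3-7 and 4-8, against a lowest of 62.0, a median of 83.4 and a highest of 114 CPM in low yield. Pairs 1-5 and 2-6 lay below every low-yield library and the other pairs within their range (log2 fold change -0.43, SE 0.20, edgeR unadjusted p = 0.0520, adjusted p = 0.584). The second row, LOC117435004, had 31.9, 37.1, 8.83 and 14.7 CPM in the same pairs, against 13.2 to 33.8 CPM, median 20.9, in low yield. Here pairs 1-5 and 2-6 were the high ones, beside low-yield 2 at 33.8 and low-yield 5 at 28.5 CPM, and the fold change of 0.13 (SE 0.37) was negative without either of these pairs. The log2 ratio of the first row to the second was thus 0.53 and 0.50 in pairs 1-5 and 2-6 and 2.95 and 2.34 in pairs 3-7 and 4-8, against 1.43 to 2.59 in low yield. Reads of such similar copies may be split between rows by the counting, so the split is uncertain.

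Acetyl-CoA carboxylase 2, the form whose malonyl-CoA restrains the carnitine shuttle at the mitochondrion, was the main carboxylase by counts. Its row LOC117428031 had 8.93, 14.2, 8.04 and 11.2 CPM in high yield, against 9.96 to 23.7 CPM, median 14.3, in low yield (log2 fold change -0.57, SE 0.29, edgeR unadjusted p = 0.0692, adjusted p = 0.599). The second row, LOC117426575, had 9.48, 16.8, 10.1 and 20.3 CPM, against 12.4 to 39.1 CPM, median 20.6 (log2 fold change -0.60, SE 0.32, adjusted p = 0.609). Pairs 1-5 and 3-7 lay, for either row, below every low-yield library and the other pairs within their range. By CPM the first row was highest in low-yield 5 and 6 and the second in low-yield 6. By FPKM both were highest in low-yield 2, at 14.5 and 5.89, so these ranks depend on the TMM scaling.

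The rows of fatty acid synthase and acetyl-CoA carboxylase 1 were described after their values were seen. Fatty acid synthase LOC117423032 had 1.345, 1.54, 1.82 and 0.864 CPM in high yield, against a lowest of 0, a median of 0.610 and a highest of 5.44 CPM in low yield. The other row, LOC117424309, had 0.188, 0.0723, 0.0886 and 0.576 CPM in high yield, against a median of 0.254 CPM and 7.81 CPM in low-yield 2. Low-yield 2 held the highest value of both. In low-yield 5 the first had 0.830 CPM, below every high-yield pair, and the second 1.25 CPM, above every pair. With all samples the fitted log2 fold change of LOC117424309 was -2.45 (SE 1.47) in edgeR and -0.60 (SE 1.09) in DESeq2. The edgeR value was -0.64 without low-yield 2 and 0.16 without low-yield 2 and 5. Acetyl-CoA carboxylase 1 was also high in low-yield 2, while in low-yield 5 its rows differed. LOC117964244 had 0.642 to 2.91 CPM in high yield, against 0.971 to 4.84 CPM in low yield, the highest in low-yield 2. Low-yield 5 had 2.78 CPM in this row, below pair 4-8 at 2.91 CPM. LOC117429309 had 0.365 to 0.888 CPM in high yield, against 0.211 to 2.85 CPM in low yield, with 2.58 CPM in low-yield 2 and 2.85 CPM in low-yield 5. Low-yield 2 and 5 are the libraries with the most matrix markers, and low-yield 2 had 38.1 CPM of the fat-droplet gene perilipin-1 in its row LOC117428569 and 29.9 CPM in its row LOC117429138. The first row had 0.533 to 1.09 CPM in high yield, while the remaining low-yield libraries had 0.872 to 6.57 CPM. Of the other fat cell markers the leptin rows stayed at or under 0.649 CPM, hormone-sensitive lipase at or under 0.364 CPM and the adiponectin rows at or under 1.88 CPM in every sample. Others on that list were present in every sample, with the lipid droplet gene CIDE-3, LOC117962611, at 38.6 to 53.9 CPM in high yield against 34.4 to 63.5 CPM in low yield, and lipoprotein lipase, LOC117401443, at 31.4 to 93.5 CPM against 13.1 to 95.6 CPM. The part of such cells in these values was not tested, and in whole ovary fewer cells of a type and less RNA per cell cannot be told apart.

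Over the 11 synthesis rows, 3 had a positive sign and 8 a negative one (median log2 fold change -0.43), and 0 passed even an unadjusted p under 0.05. The median was -0.02 without low-yield 2 and 5. The rows summed to 138, 167, 123 and 155 CPM in the high-yield pairs, against 133 to 244 CPM, median 171, in low yield, with low-yield 2 at 227 and low-yield 6 at 244 CPM on top. The row dus1l made up a part of this sum with 33.0, 35.3, 17.5 and 21.6 CPM in high yield, against 15.9 to 27.0 CPM, median 21.9, in low yield (log2 fold change 0.36, SE 0.22, adjusted p = 0.638).

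In desaturation, 2 rows of acyl-CoA desaturase carried the signal. This enzyme places the first double bond in saturated chains, which makes oleate from stearate. The row scdb had 38.0, 56.0, 25.1 and 35.5 CPM in high yield, against 24.9 to 72.4 CPM, median 49.8, in low yield (log2 fold change -0.33, SE 0.29, edgeR adjusted p = 0.718). LOC117415462 had 24.9, 18.7, 24.3 and 55.0 CPM in high yield, against 24.8 to 40.4 CPM, median 36.2, in low yield (log2 fold change -0.13, SE 0.26, adjusted p = 0.881). Pair 4-8 lay above every low-yield library, pairs 2-6 and 3-7 below all of them and pair 1-5 beside the lowest. The fold change was 0.05 without pair 2-6.

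The rows named as desaturases that make polyunsaturated fatty acids were low in counts, and fatty acid desaturase 2 was close to absent in high yield. Fatty acid desaturase 2, which opens the route to long-chain polyunsaturated fatty acids in vertebrates, had its row LOC117434917 at 7 counts over the 8 high-yield libraries, all in library 7, against 139 counts over the 8 low-yield libraries, of which 57 were in low-yield 2 and 45 in low-yield 5. It was listed at 0 in 7 of 8 high-yield and in 2 of 8 low-yield libraries. This was the 1 member lower in high yield at an unadjusted p under 0.05 (edgeR unadjusted p = 0.0401, adjusted p = 0.580). The row passed the count filter only through its low-yield counts, so this p is no support for a difference. It was not tested without low-yield 2, without low-yield 5 or with all 16 libraries as samples. Its fitted log2 fold change of -4.04 (SE 1.79) rests on these few counts. Fatty acid desaturase 1, LOC117434921, was counted in every library, at 11 to 117 counts. It had 0.334, 1.64, 1.21 and 1.81 CPM in high yield, against 0.451 to 3.15 CPM, median 1.68, in low yield (adjusted p = 0.789). Of the 6 desaturation rows, 5 were tested and all 5 had a negative sign (median log2 fold change -0.52). None but LOC117434917 had an unadjusted p under 0.05.

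In elongation, elongase 1, which lengthens saturated very long chains, led the rows of ordinary length. Its row LOC117416930 had 115, 105, 98.1 and 101 CPM in high yield, against 79.8 to 139 CPM, median 124, in low yield (log2 fold change -0.14, SE 0.18, edgeR adjusted p = 0.803). The short row of elongase 7, LOC131710627, had 27.2, 39.2, 15.6 and 16.4 CPM, against 9.14 to 45.2 CPM, median 20.4 (log2 fold change 0.19, SE 0.43, adjusted p = 0.900). Both lay inside the low-yield range.

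The elongases nearest to a difference were low in abundance. Elongase 5, which lengthens polyunsaturated chains, had in its row LOC117403386 1.79, 0.997, 0.613 and 0.476 CPM in high yield, against 1.16 to 3.24 CPM, median 1.76, in low yield. Pairs 2-6, 3-7 and 4-8 lay below every low-yield library and pair 1-5 at their middle (log2 fold change -0.91, SE 0.51, edgeR unadjusted p = 0.0949, adjusted p = 0.616). The other elongase 5 row, LOC117411440, had the opposite sign on few counts (log2 fold change 0.44, SE 1.42, edgeR adjusted p = 0.932). It had 0.366, 0.427, 0.953 and 0.130 CPM in high yield, against 0 to 1.27 CPM, median 0.139, in low yield. Elongase 6, which takes palmitate to stearate, had in its row LOC117417739 8.14, 8.60, 7.39 and 11.4 CPM in high yield, against 7.47 to 15.2 CPM, median 12.1, in low yield (log2 fold change -0.38, SE 0.24, adjusted p = 0.638). Its other rows had the opposite sign, with log2 fold changes of 0.40 in LOC117421317, 0.34 in LOC117415005 and 0.24 in LOC117409496. Their edgeR adjusted p values were 0.646, 0.679 and 0.944. Elongase 2, which acts on polyunsaturated chains of greater length, was not tested, since its row LOC117435692 had 12 counts over all high-yield libraries and 185 over all low-yield libraries, 156 of them in low-yield 2, and LOC117400378 had 62 counts in high yield and 121 in low yield, 64 of them in low-yield 2. Of the 13 elongation rows tested 7 had a positive and 6 a negative fold change (median 0.19).

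In activation, the ACSBG2-like ligases were the largest part. LOC117963608 had 264, 230, 322 and 276 CPM in high yield, against 178 to 325 CPM, median 300, in low yield, where low-yield 2 at 178 and low-yield 5 at 186 CPM were lowest (log2 fold change 0.04, SE 0.22, edgeR adjusted p = 0.965). The sign turned without low-yield 2, without low-yield 5 or without pair 3-7. By FPKM this row was lowest in low-yield 5 at 67.8, and low-yield 2 at 120 lay above low-yield 8 at 111. The short row of ligase 1, LOC131706854, had 31.9, 36.8, 30.4 and 37.3 CPM in high yield, against 33.0 to 50.2 CPM, median 43.6, in low yield (log2 fold change -0.27, SE 0.17, adjusted p = 0.651).

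Ligase 6, known from mammalian brain for its use of polyunsaturated fatty acids, had unlike copies. LOC117431151 had 7.87, 19.8, 29.5 and 26.03 CPM in high yield, against 20.9 to 40.6 CPM, median 30.6, in low yield, so that pairs 1-5 and 2-6 lay below every low-yield library (log2 fold change -0.55, SE 0.31, edgeR unadjusted p = 0.10, adjusted p = 0.616). By FPKM pair 2-6 at 10.82 lay above low-yield 8 at 10.75, so the place of this pair depends on the TMM scaling. The copy LOC117413334 had 19.3, 34.7, 21.1 and 20.04 CPM, against 18.3 to 30.4 CPM, median 27.4 (log2 fold change -0.10, SE 0.21). The log2 ratio of the first to the second was -1.30, -0.81, 0.48 and 0.38 in the high-yield pairs, against -0.15 to 0.42 in low yield.

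Ligase 5, an enzyme of intestine and liver in mammals, was a matter of 1 pair. The row acsl5 had 801 and 687 counts in high-yield 1 and 5 and 4 to 49 counts in the other high-yield libraries, against 0 to 152 counts in low yield. As CPM this was 12.9, 0.101, 0.562 and 1.00 in the pairs, against 0 to 3.01 CPM, median 0.571, in low yield (log2 fold change 1.91, SE 1.17, edgeR adjusted p = 0.635), and the fold change was -0.84 without pair 1-5. The second row of ligase 5, LOC131728379, showed the same pair apart, at 3.33 CPM against 0.0298 to 0.197 CPM in the other pairs and 0 to 0.649 CPM in low yield. The 2 rows of ligase ACSBG1, LOC117429206 and LOC131700567, were not tested, with 54 and 64 counts over the high-yield libraries and 0 counts in each low-yield library. The first row had 14, 36 and 4 counts in high-yield 1, 2 and 3 but 0 in libraries 5 to 8, so the libraries of these pairs differed. The second had 5 and 11 counts in libraries 1 and 5 and 17 and 31 in libraries 2 and 6. Over the 19 ligase rows tested 8 had a positive and 11 a negative fold change (median -0.21), and the 21 rows summed to 937 to 973 CPM in high yield against 697 to 1101 CPM in low yield.

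The carnitine shuttle held the member with the smallest p. Carnitine palmitoyltransferase 1 hands the acyl group to carnitine at the outer mitochondrial membrane and is the gate to beta-oxidation. Of its muscle-type rows, LOC117415607 had 15.9, 14.5, 3.52 and 2.44 CPM in the high-yield pairs, against 1.08 to 6.69 CPM, median 2.28, in low yield. Pairs 1-5 and 2-6 lay above every low-yield library, and pairs 3-7 and 4-8 within their range, where low-yield 2 at 6.69 and low-yield 5 at 6.02 CPM were highest. The log2 fold change was 1.602 (SE 0.59, edgeR unadjusted p = 0.0172, adjusted p = 0.574). The edgeR unadjusted p was 0.0869 without pair 1-5 (adjusted p = 0.891) and 0.0708 without pair 2-6 (adjusted p = 0.898). Without these pairs and low-yield 2 and 5 the fold change was 0.61 (SE 0.53, edgeR unadjusted p = 0.273, adjusted p = 0.936). Without low-yield 2 and 5 alone it was 2.22 (SE 0.56, edgeR unadjusted p = 0.00178, adjusted p = 0.276). In that last setting 7.32% of members and 12.9% of all tested genes had an unadjusted p under 0.05. The other muscle-type row, LOC117419378, was low in counts and did not share this pattern. It had 0.853, 0.108, 3.69 and 0.776 CPM in the high-yield pairs, against 0.494 to 3.31 CPM, median 1.42, in low yield. Its log2 fold change was -0.12 (SE 0.78, edgeR adjusted p = 0.967).

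The liver-type row LOC117432129 was opposite in sign to LOC117415607. LOC117432129 had 5.84, 4.27, 11.2 and 8.42 CPM in high yield, against 8.62 to 19.0 CPM, median 11.3, in low yield, with pairs 1-5, 2-6 and 4-8 below every low-yield library and low-yield 5 alone at 19.0 CPM (log2 fold change -0.63, SE 0.30, edgeR unadjusted p = 0.0551, adjusted p = 0.584). By FPKM, low-yield 2 was highest in this row at 7.10 and low-yield 5 next at 5.75. Pair 4-8 at 3.29 FPKM lay above low-yield 1 at 2.95 and low-yield 7 at 2.98, so its place depends on the TMM scaling. The fold change was -0.05 without pairs 1-5 and 2-6 and low-yield 2 and 5. Its copy LOC117435120 had 17.1, 15.1, 18.9 and 21.7 CPM, against 16.3 to 50.2 CPM, median 24.9, with low-yield 5 again highest by CPM (adjusted p = 0.630). By FPKM low-yield 2 stood at 12.47 and low-yield 5 at 12.39 in this copy. The enzyme of the inner membrane, cpt2, had 30.8, 52.7, 41.1 and 56.8 CPM, against 38.2 to 57.9 CPM, median 47.8 (log2 fold change -0.03, SE 0.20, adjusted p = 0.965).

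**Figure D3:**
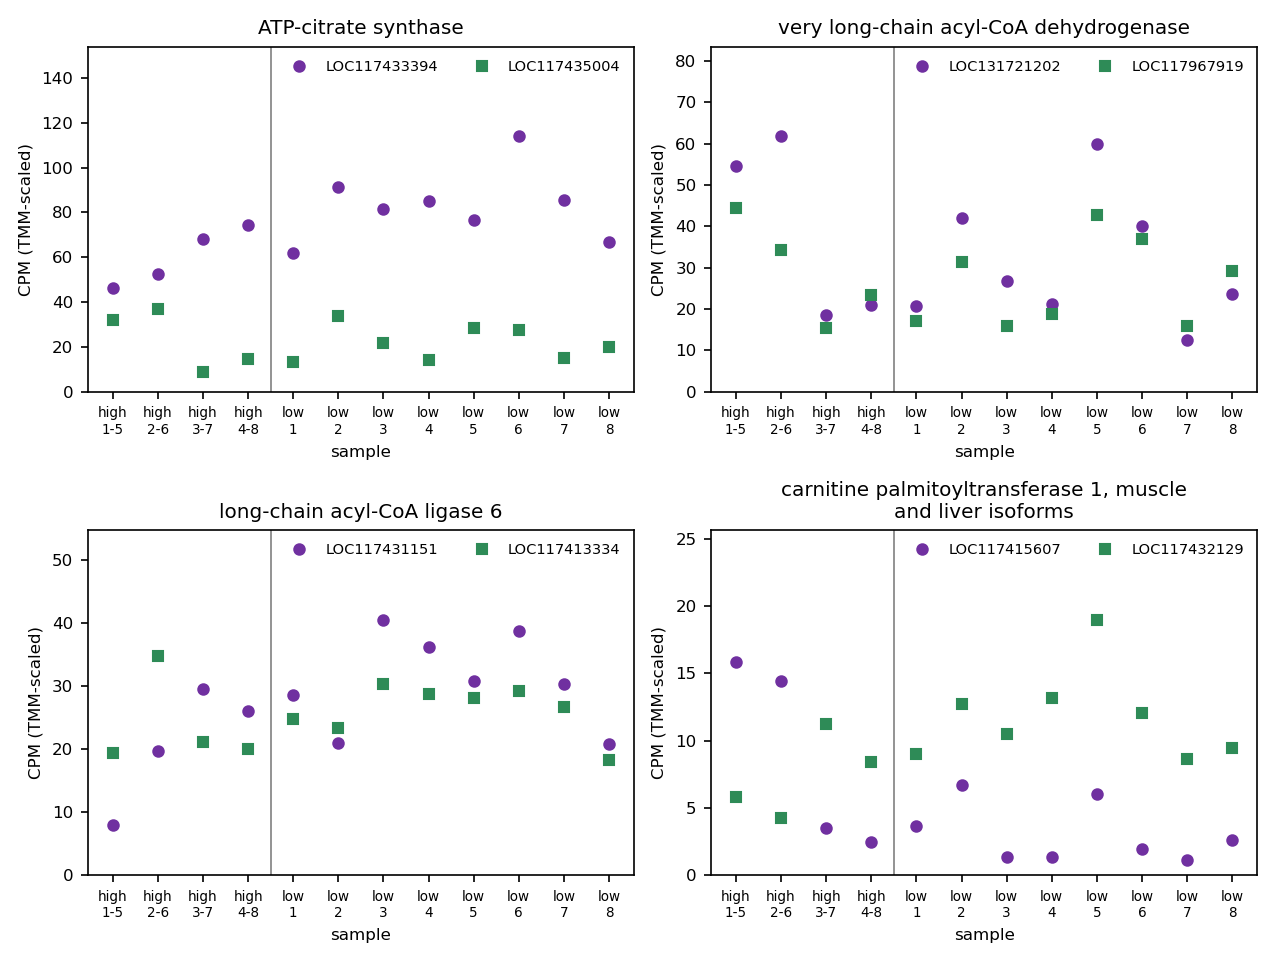
TMM-scaled CPM per sample of 2 rows each of ATP-citrate synthase, very long-chain acyl-CoA dehydrogenase and ligase 6, and of a muscle-type and a liver-type row of carnitine palmitoyltransferase 1, with high-yield pair means left of the grey line. High-yield pairs 1-5 and 2-6 differ from pairs 3-7 and 4-8 in most panels, for example at 15.9 and 14.5 CPM against 3.52 and 2.44 CPM of the muscle-type row LOC117415607. The panels were picked by hand rather than by a rule, so they do not stand for all members or all copies.

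Other shuttle rows had unadjusted p values above 0.05. The peroxisomal enzyme crot, which loads medium chains on carnitine for export, had 6.13, 9.96, 12.5 and 15.7 CPM, against 4.05 to 16.3 CPM, median 6.99 (log2 fold change 0.50, SE 0.37, edgeR adjusted p = 0.682), and its fold change was 0.85 without pairs 1-5 and 2-6 and low-yield 2 and 5. The carnitine acetyltransferase row LOC117396826, picked after its values were seen, had 10.4, 9.75, 2.37 and 8.35 CPM, against 2.17 to 14.1 CPM, with low-yield 5 and 2 highest. Its log2 fold change was 0.41 (SE 0.51, edgeR adjusted p = 0.799), and 1.02 without low-yield 2 and 5. Another such row, LOC131709067, had 13.4, 11.1, 10.5 and 14.9 CPM, against 8.04 to 14.6 CPM, median 12.3 (log2 fold change 0.17, SE 0.22, adjusted p = 0.815). Over the 10 shuttle rows 6 had a positive sign and 4 a negative one (median log2 fold change 0.16).

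In mitochondrial oxidation, the alpha subunit of the trifunctional enzyme, which carries hydratase and dehydrogenase steps for long chains, was the second member with an unadjusted p under 0.05. Its row LOC117402708 had 126, 157, 95.4 and 102 CPM in high yield, against 70.3 to 107 CPM, median 93.9, in low yield. Pairs 1-5 and 2-6 lay above every low-yield library and the others inside the upper part of their range (log2 fold change 0.44, SE 0.18, edgeR unadjusted p = 0.0302, adjusted p = 0.578). The fold change was 0.42 without pair 1-5 (edgeR unadjusted p = 0.0642, adjusted p = 0.891), 0.29 without pair 2-6 (edgeR unadjusted p = 0.159, adjusted p = 0.898) and 0.19 without both pairs and low-yield 2 and 5. The beta subunit LOC117402250, the thiolase partner in the same complex, had 171, 188, 209 and 249 CPM, against 89.6 to 224 CPM, median 178 (log2 fold change 0.26, SE 0.23, adjusted p = 0.723), with low-yield 2 lowest. Another beta subunit row, LOC117410351, had a negative sign (log2 fold change -0.16, SE 0.28, edgeR adjusted p = 0.864). It had 70.1, 80.2, 110 and 151 CPM in high yield, against 65.7 to 169 CPM, median 117, in low yield.

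The acyl-CoA dehydrogenases take the first step of each turn, with a separate enzyme for each chain length. The medium-chain row LOC117416830 had 103, 182, 166 and 249 CPM in high yield, against 95.6 to 205 CPM, median 184, in low yield (log2 fold change 0.09, SE 0.27, edgeR adjusted p = 0.923), with pair 4-8 above every low-yield library and low-yield 2 lowest. By FPKM, low-yield 5 was lowest instead, at 50.5 against 83.5 in low-yield 2. The very long-chain row LOC131721202, one of the short rows, had 54.6, 61.7, 18.6 and 20.9 CPM in high yield, against 12.6 to 59.8 CPM, median 25.3, in low yield, with low-yield 5 at 59.8 and low-yield 2 at 42.1 CPM (log2 fold change 0.37, SE 0.41, adjusted p = 0.766). Its copy LOC117967919 was likewise higher in pairs 1-5 and 2-6 than in the other pairs, with 44.3, 34.3, 15.4 and 23.3 CPM against 15.8 to 42.8 CPM, median 23.9, low-yield 5 at 42.8 CPM again highest. Without pairs 1-5 and 2-6 and low-yield 2 and 5 the fold change of the first row was -0.27 and that of the copy -0.18. The row of family member 10, LOC117426972, had 30.6, 30.5, 39.5 and 38.6 CPM in high yield, against 23.4 to 71.0 CPM, median 46.6, in low yield (log2 fold change -0.47, SE 0.25, edgeR unadjusted p = 0.0857, adjusted p = 0.611). All pairs lay below every low-yield library but low-yield 5 at 23.4 CPM. By FPKM pair 4-8 at 23.8 also lay above low-yield 1 at 23.1. Without low-yield 2 and 5 the fold change was -0.63 (SE 0.18, edgeR unadjusted p = 0.00511, adjusted p = 0.276). With pairs 1-5 and 2-6 left out as well it was -0.45. Across the alternatives it ran from -0.63 to -0.37.

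Other rows also varied widely between samples. The medium-chain row LOC117405684 had 25.3, 33.0, 112 and 106 CPM in the high-yield pairs, against 14.9 CPM in low-yield 5 and up to 179 CPM in low-yield 8, median 75.4. LOC117416850, of the same description, had 2.63, 2.43, 6.34 and 28.4 CPM, against 0.363 CPM in low-yield 5 and up to 25.98 CPM in low-yield 6, median 13.0. LOC117427795, of family member 11, had 17.2, 15.03, 6.71 and 3.93 CPM, against 25.98 CPM in low-yield 5 and 12.1 CPM in low-yield 2 at the top of a range from 2.04 CPM, median 5.48. None of these 3 had an unadjusted p under 0.05, and they were picked after their values were seen. Over all 24 rows 12 had a positive and 12 a negative fold change (median 0.02), and the rows summed to 921, 1068, 1143 and 1290 CPM in high yield, against 741 to 1267 CPM, median 1107, in low yield, with low-yield 2 at 741 and low-yield 5 at 842 CPM lowest. The low rank of low-yield 2 in this sum depends on the TMM scaling. The sum includes lhx8a, whose symbol points elsewhere.

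In peroxisomes, acyl-CoA oxidase opens the oxidation of very long and branched chains. The row acox3, the branched-chain form, had 39.98, 55.0, 28.03 and 36.5 CPM in high yield, against 14.5 to 37.6 CPM, median 26.5, in low yield (log2 fold change 0.52, SE 0.26, edgeR unadjusted p = 0.0648, adjusted p = 0.593). Pairs 1-5 and 2-6 lay above every low-yield library, the other pairs lay within their range, and low-yield 5 was lowest. The fold change of acox3 was 0.06 without pairs 1-5 and 2-6 and low-yield 2 and 5.

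**Figure D4:**
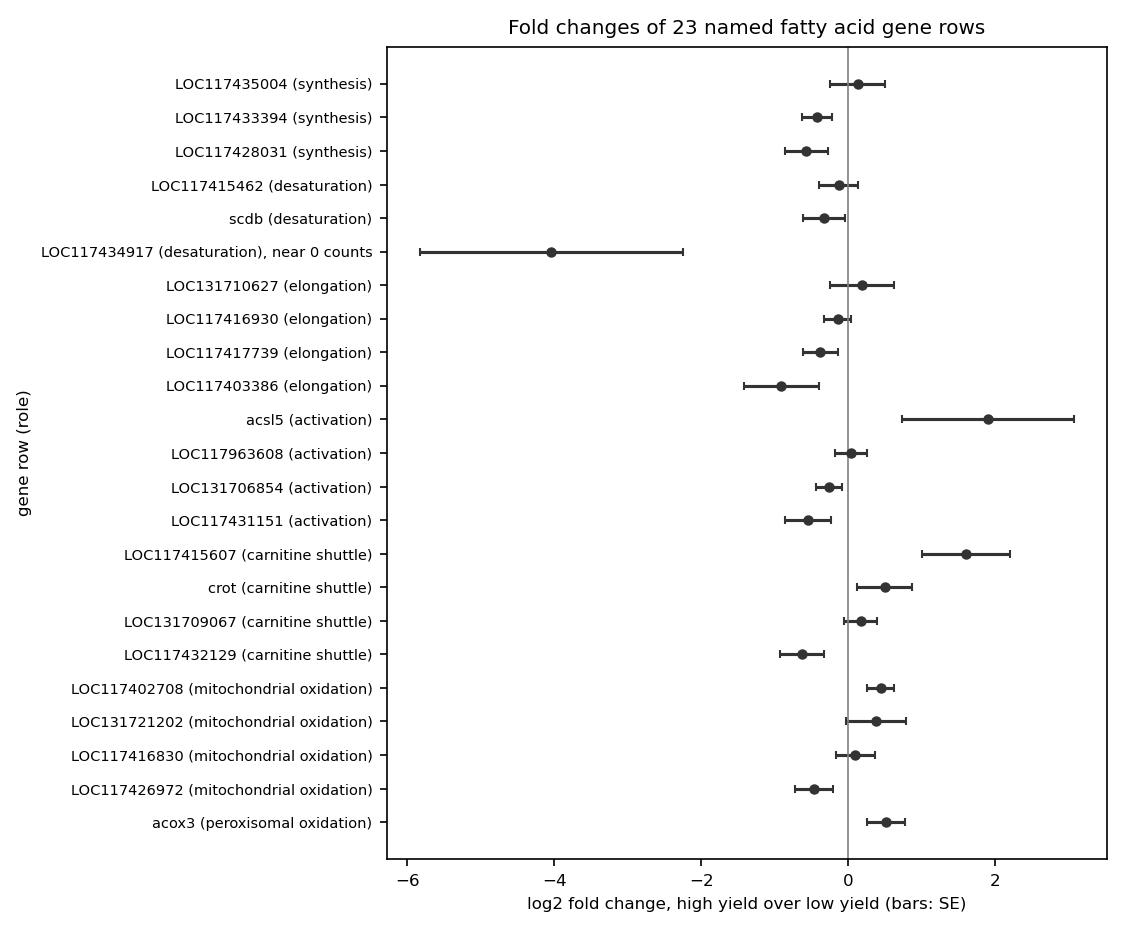
Log2 fold change, high yield over low yield, with its SE, of 23 rows named by a rule on level and p, by role. Fold changes lie on both sides of 0 within most roles, and the widest bars belong to LOC117434917 (-4.04, near 0 counts in high yield) and acsl5 (1.91, 1 high-yield pair).

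Summed by role, the groups overlapped in each of 6 roles. Activation summed to 962 ± 16.7 CPM in the high-yield pairs and 965 ± 143 CPM in the low-yield libraries (SD, n = 4 and 8), elongation to 340 ± 26.7 and 348 ± 56.8 CPM, the carnitine shuttle to 144 ± 15.9 and 144 ± 16.6 CPM, and mitochondrial oxidation to 1105 ± 154 and 1055 ± 174 CPM. Desaturation summed to 71.1 ± 17.96 CPM in the high-yield pairs and 87.3 ± 18.02 CPM in the low-yield libraries, and synthesis to 146 ± 19.1 and 179 ± 38.5 CPM. Low-yield 6 held the highest value of 14 of the 84 members (16.7%, against 9.49% of all tested genes), and low-yield 5 of 13 (15.5%, against 16.9%). The lowest value was in low-yield 5 for 17 members (20.2%, against 14.9%), in high-yield pair 1-5 for 13 (15.5%, against 9.51%) and in low-yield 2 for 12 (14.3%, against 14.9%).

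**Figure D5:**
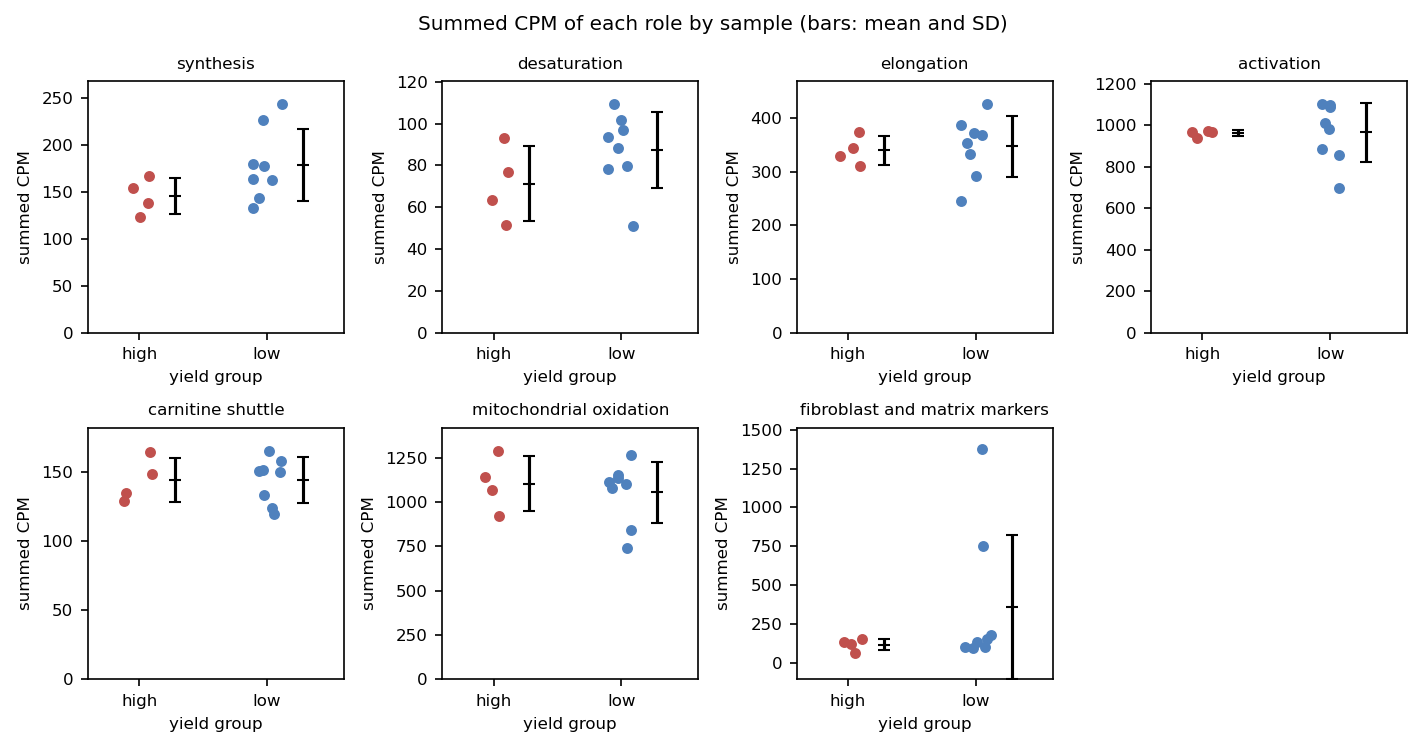
Summed TMM-scaled CPM of 6 roles and of the fibroblast and matrix markers in each high-yield pair (red) and each low-yield library (blue), with mean and SD. The groups overlap in every panel, and in the marker panel 2 low-yield libraries stand at 750 and 1374 CPM.

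Enzymes that work beside the members were taken from lists chosen by protein name, and 0 of their genes were called by edgeR over all genes. Beside the counts that follow, 48.6% of all tested genes had a positive sign, and 5.18% were higher and 3.35% lower at an unadjusted p under 0.05. Among 22 tested further enzymes of mitochondrial beta-oxidation, 20 had a positive sign and 2 a negative one (median log2 fold change 0.30), and 3 were higher and 0 lower at an unadjusted p under 0.05. The nearest, zgc:101569, an enoyl-CoA hydratase-like row, had 16.2, 14.6, 3.48 and 3.84 CPM in high yield, against 2.19 to 5.27 CPM, median 3.81, in low yield (log2 fold change 1.33, SE 0.41, edgeR adjusted p = 0.574), and its fold change was -0.06 without pairs 1-5 and 2-6 and low-yield 2 and 5. Summed, this list had 1123, 1167, 1633 and 1409 CPM in high yield, against 578 to 1416 CPM, median 1205, in low yield, with low-yield 2 lowest, a rank that depends on the TMM scaling.

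Among 16 tested genes of fatty acid uptake and binding, 2 were higher and 1 lower at an unadjusted p under 0.05. Heart-type fatty acid-binding protein, LOC117414014, a carrier of fatty acids in the cytosol, had 404, 287, 226 and 86.2 CPM in high yield, against 47.6 to 213 CPM, median 98.9, in low yield. The pairs 1-5, 2-6 and 3-7 lay above every low-yield library and pair 4-8 inside their range (log2 fold change 1.18, SE 0.40, edgeR unadjusted p = 0.0104, adjusted p = 0.574). The fold change was 0.86 without pair 1-5 (edgeR unadjusted p = 0.0620, adjusted p = 0.891) and 0.57 without pairs 1-5 and 2-6 and low-yield 2 and 5 (edgeR unadjusted p = 0.163, adjusted p = 0.934). Among 12 tested partners of the elongases 3 were higher and 1 lower at that p, beside 5.18% and 3.35% of all genes. The lower one was the enoyl-CoA reductase row tecrl2a at 0 to 0.0897 CPM in high yield against 0 to 2.94 CPM in low yield (edgeR adjusted p = 0.574). It passed the count filter only through low-yield libraries, mainly low-yield 1 to 4 at 1.66 to 2.94 CPM. It was not tested without low-yield 2 and 5 or with all 16 libraries as samples.

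Of 41 tested regulators of lipid metabolism 1 was higher and 1 lower at an unadjusted p under 0.05. The oxysterol receptor LXR-alpha, LOC117432029, which turns on fatty acid synthesis genes in mammals, had 3.63, 2.12, 1.46 and 2.82 CPM in high yield, against 2.46 to 9.65 CPM, median 4.32, in low yield, with low-yield 5 at 9.65 and low-yield 2 at 8.29 CPM highest (log2 fold change -0.98, SE 0.44, edgeR unadjusted p = 0.0445, adjusted p = 0.581). Of 20 tested genes that supply synthesis 0 passed an unadjusted p of 0.05. The nearest was a citrate carrier, LOC117428075, at 8.40, 6.85, 0.962 and 2.10 CPM in high yield against 0.926 to 3.92 CPM, median 2.04, in low yield (log2 fold change 1.09, SE 0.56, adjusted p = 0.599). Of 14 tested further peroxisomal genes 0 passed either, with the bifunctional enzyme ehhadh at 7.04, 9.92, 17.4 and 13.5 CPM against 9.74 to 26.2 CPM, median 16.04 (log2 fold change -0.40, SE 0.30, adjusted p = 0.681).

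Of the marker lists of other cells, those of matrix, endothelium, smooth muscle, leukocytes and granulosa and theca cells were highest in low-yield 2 and 5, and edgeR called 0 rows of any list. All 18 tested fibroblast and matrix rows and all 16 tested endothelial rows had a negative sign (median log2 fold change -1.69 and -2.19), and 5 of each list were lower at an unadjusted p under 0.05. At that p, 4 of 14 leukocyte rows, 1 of 11 smooth muscle rows, 2 of 14 granulosa and theca rows, 3 of 14 fat cell rows and 0 of 8 erythrocyte rows were lower and 0 higher, while 3 of 156 oocyte rows were lower and 1 higher. Of all tested genes 3.35% were lower and 5.18% higher at that p. Endothelial markers summed to 14.5 to 25.3 CPM in high yield, against 13.1 to 195 CPM in low yield, and leukocyte markers to 12.7 to 23.1 CPM, against 7.97 to 114 CPM. Smooth muscle markers summed to 108 to 147 CPM in high yield, against 73.9 to 2582 CPM, and granulosa and theca markers to 13.8 to 20.02 CPM, against 19.3 to 79.3 CPM. Fat cell markers summed to 176 to 360 CPM, against 201 to 392 CPM, erythrocyte markers to 18.8 to 60.2 CPM, against 19.0 to 73.2 CPM, and oocyte markers to 50200.3 to 72025 CPM, against 34825 to 156490 CPM. Their part in the values of the fatty acid genes was not tested, and the median over the 82 members tested without low-yield 2 and 5 was -0.09.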

How the data were processed

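The authors deposited 1 table with whole-number counts and FPKM per gene and library, per the file headers. Adapters were trimmed with cutadapt 1.9, per the submitters' processing notes, and poly(A) RNA was captured and fragmented, per the labels' protocols. Aligner, counter, strand setting, annotation and genome build: not given in the sources used here, so no gene position or sequence is printed. The ratio of a gene's CPM to its deposited FPKM, which differs somewhat between libraries, was used as its implied length.

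Counts of each near-identical high-yield pair were summed (1 with 5, 2 with 6, 3 with 7, 4 with 8) and 4 sums were compared with 8 low-yield libraries, two-sided, in edgeR 4.0.16 (filterByExpr with a minimum count of 10, TMM scaling, quasi-likelihood F test, Benjamini-Hochberg adjustment over all tested genes, threshold 0.05). SEs were taken as the absolute log2 fold change over the root of F. CPM are TMM-scaled over 16 libraries and averaged within pairs. Nothing says that the libraries of a pair came from separate females, and p-values measure only the spread between these samples. The fits were tested on simulated data in which 200 genes had known fold changes.

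Members follow a rule on protein names, and 1 of its names, acyl-CoA 6-desaturase, matched 0 rows. Members and lists were chosen with earlier results of these data known, and chance name matches were taken out of the lists by name after the table was seen. In each role the 2 rows with the highest mean FPKM and the 2 with the smallest p are named, 24 in all, of which 1 is not reported here, plus the row with the smallest p of each of 6 lists. Another 9 rows, and the rows LOC117434921, LOC117435120, LOC131728379, LOC117396826, LOC117405684, LOC117416850 and LOC117427795, were added after their values were seen. So were the rows LOC117421317, LOC117415005, LOC117409496, LOC117411440, LOC117419378 and LOC117410351. Alternatives were DESeq2 1.42.0, limma 3.58.1 on log2(FPKM + 1) and log2(FPKM + 0.1) for genes averaging 1 FPKM or more, or for all genes, other scalings and filters, all 16 libraries as samples, a replicate block, 1 library of each pair, and leaving out each sample. The software was Python 3.11.15 (scipy 1.17.1, matplotlib 3.10.9, pandas 2.3.3, numpy 2.4.6) and R 4.3.3.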

Additional observations from a re-analysis of the deposited data

Results flagged for a closer look

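Of 94 sets of values tested for a single sample far from the rest (named rows and role sums, by group), 10 were flagged by Dixon's ratio. Chance flags about 1 in 20 of independent sets with normally distributed values. CPM of related rows need not meet this, so the count of 10 is not read as an excess. Among the high-yield pairs, acsl5 stood apart at 12.9 CPM in pair 1-5, the desaturase LOC117415462 at 55.04 CPM in pair 4-8, the ligase 6 row LOC117413334 at 34.72 CPM in pair 2-6, fatty acid desaturase 2 LOC117434917 at 0.06944 CPM in pair 3-7 (7 counts, all others 0), and the summed activation rows at 937.5 CPM in pair 2-6, the low end of a narrow range. Among the low-yield libraries, low-yield 2 stood apart in both fatty acid synthase rows, at 5.443 CPM in LOC117423032 and 7.809 CPM in LOC117424309, and in the acetyl-CoA carboxylase 1 row LOC117964244 at 4.837 CPM. Low-yield 5 stood apart in the liver-type carnitine palmitoyltransferase LOC117432129 at 19.0 CPM, and low-yield 6 in the elongase 5 row LOC117403386 at 3.238 CPM. By FPKM low-yield 2 was highest in LOC117432129, at 7.10 against 5.75 in low-yield 5, so that flag of low-yield 5 depends on the TMM scaling.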

How the results depend on the processing

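edgeR and limma called 0 members under each of the 26 alternatives run, and DESeq2 called 0 as well. The member median log2 fold change ran from -0.16 to -0.04, over the 62 to 89 members each setting tested. Over all genes 0 were called in the main comparison, against 16 with 16 libraries as samples and 85 with DESeq2. Of 39 named genes, 24 kept their sign under every alternative that could be fitted. Leaving out each sample in turn gave -0.1963 to 0.4116 for LOC117435004, -0.0456 to 0.1149 for LOC117963608, -0.1354 to 0.4227 for LOC131710627, -0.5564 to 0.0508 for LOC117415462, -0.1153 to 0.2844 for LOC117416830, -0.0518 to 0.4359 for LOC117967919 and -0.8403 to 2.3796 for acsl5. Without high-yield pairs 1-5 and 2-6 and low-yield 2 and 5, the value was -0.6482 for LOC117435004, -0.5839 for LOC131710627, 0.1994 for LOC117415462, 0.6756 for LOC117424309, 0.6259 for LOC117964244, -0.1801 for LOC117967919, -0.2678 for LOC131721202, -0.1681 for LOC117428075, -0.1753 for dus1l and -0.0569 for zgc:101569. Without low-yield 2 and 5 it was -0.092 for LOC117416830, 0.1616 for LOC117424309, 0.0977 for LOC117429309 and -0.1228 for LOC117963608. With high-yield 1 to 4 alone it was -0.0425 for LOC117423032 and -0.0238 for LOC117963608, with high-yield 5 to 8 alone -0.1466 for LOC131710627, and with library size as the scaling -0.0463 for LOC117423032. With limma it was -0.05, -0.06 and, with no filter, -0.05 for LOC117435004. The cause was not tested.

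Same-numbered libraries deviated together weakly (correlations -0.21 to 0.39). Differently numbered libraries were not compared, so these values do not decide whether the numbers pair the samples. With the number as a replicate block over 16 libraries, the member median was -0.12, 0 members were called and LOC117435004 had -0.0607. Under 1 CPM, as for fatty acid desaturase 2, the counts allow no firm fold change.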
